A study of Arabidopsis thaliana with 24 samples.

Results

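The bzip68 mutant of Arabidopsis thaliana was set against the wild type (wt) after a mock spray, with 3 RNA-seq libraries per genotype that were chosen by their labels. These 6 libraries come from a series of 24 samples, 18 of them for RNA-seq and 6 for chromatin immunoprecipitation (ChIP-seq). Mock bzip68 and mock wt plants were whole seedlings that grew for 14 days on agar plates in white light of 125 µmol per square metre per second and then received water with 0.01% Triton X-100, a detergent. H2O2 bzip68 and H2O2 wt plants, used here for a second look at the same genes, were grown likewise and received 5 mM hydrogen peroxide in the same detergent. The mutant is labelled as 1 genotype whose allele is not given in the sources used here, and neither is the time from spray to harvest. The labels do not state whether the 3 samples of a group were grown apart, and the p-values here therefore cover only the spread among these libraries, which may be technical. The authors' count table held 18430 genes, and 18205 of them passed the filter on low counts and were tested.

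bZIP68 belongs to group G of the basic leucine zipper factors. Factors of this group bind DNA as dimers, with the G-box CACGTG and related ACGT elements as their usual sites, and the related factors bZIP16 and GBF1 can pair with bZIP68. In this group a conserved cysteine is known to form disulfide bonds on oxidation, which lowers DNA binding. The comparison asks which genes differ when the factor is missing and no oxidant was applied.

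Totals of the 6 mock libraries ran from 9198661 to 9957748 counts. In a principal component analysis of these 6 libraries alone, bzip68 replicate 2 stood apart at 55.1 on the first component, with the other 5 libraries between -24.1 and 0.8. Among the H2O2 libraries, wt replicate 2 stood apart, with 0.0121% of its counts from chloroplast genes, against at least 1.1% in each other H2O2 library. The genotypes separated on the second component, where bzip68 lay between -31.2 and -5.8 and wt between 5.1 and 29.8. Marker genes fitted the label of whole seedlings, since 6 of 6 mesophyll markers, 9 of 11 markers of root endodermis and stele and 8 of 8 guard cell markers were measured, against 0 of 9 for seed and 0 of the 6 pollen markers that matched a gene. In bulk tissue, fewer cells of a type and less RNA per cell cannot be told apart.

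The BZIP68 transcript itself (AT1G32150) was close to absent in the mutant. It was counted 2, 1 and 1 times in the bzip68 libraries, against 74, 82 and 102 times in the wt libraries. Those counts are 0.205, 0.117 and 0.108 CPM (counts scaled to a common library size) in bzip68, against 7.90, 9.15 and 10.1 CPM in wt. Over the summed counts the level was 62.5-fold lower in bzip68 (95% exact binomial interval 24.1 to 231, which covers counting error only). Of the other 4 members of group G, none passed the test. The median log2 fold change of all 5 members, BZIP68 included, was -0.10.

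In all, 39 genes passed an adjusted p under 0.05 (edgeR quasi-likelihood test, Benjamini-Hochberg adjustment over all 18205 genes), which is 0.214% of the genes tested. Of these, 31 were lower in bzip68 (0.17%) and 8 were higher (0.0439%). All genes together were centred, with a median log2 fold change of 0.01 and 48.9% of the values below 0. The 39 fall into 2 kinds by size. A few genes changed many-fold with libraries that hardly spread, and most of the rest were near 2-fold lower.

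**Figure D1:**
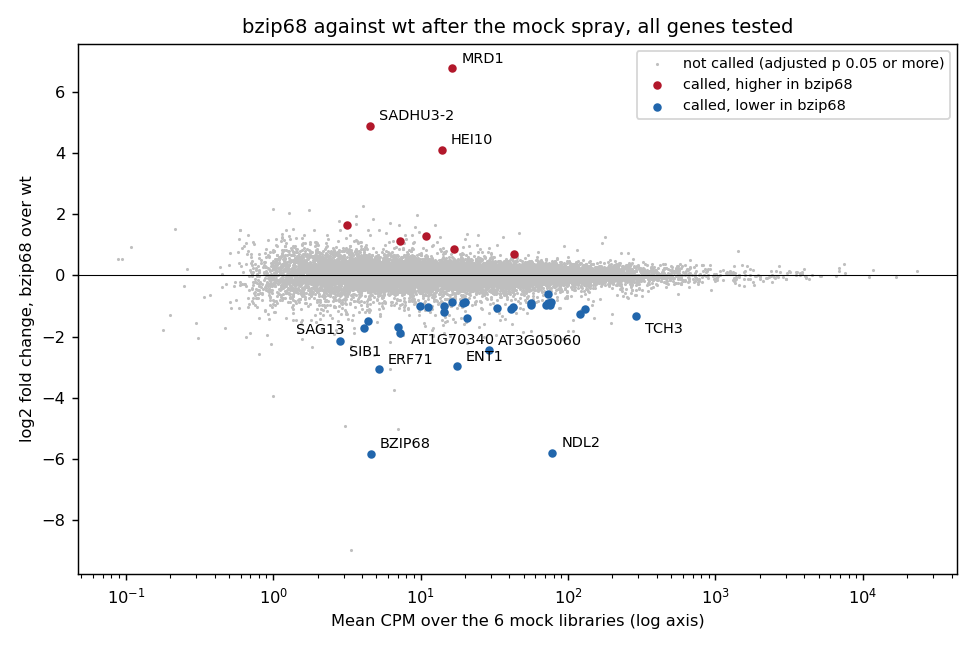
Each point is 1 of the 18205 genes tested, with its mean CPM over the 6 mock libraries on a log x axis and its log2 fold change (bzip68 over wt) on the y axis, and coloured points mark the 39 genes past an adjusted p of 0.05. NDL2 and BZIP68 lie near -5.8, MRD1, SADHU3-2 and HEI10 lie above 4, and most other coloured points lie below 0, between ZAR1 at -0.60 and ERF71 at -3.07. The lowest grey point is PR1, which had 0 counts in bzip68, so that its fitted fold change depends on the fit.

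The largest changes were in genes with no common role. NDL2 (AT5G11790) belongs to the N-MYC downregulated-like proteins, which bind the beta subunit of heterotrimeric G proteins and act in auxin transport in roots. It stood at 3.80, 1.76 and 2.60 CPM in bzip68, against 161.4, 150.5 and 150.3 CPM in wt. That is 55.8-fold lower by summed counts (exact binomial interval 44.5 to 70.9), with a wide gap between the groups. The other measured members of this family of 3 did not pass.

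MRD1 (AT1G53480), a gene named for its low level in a methionine over-accumulating mutant, stood at 30.4, 38.9 and 28.4 CPM in bzip68, against 0.320, 0.223 and 0.297 CPM in wt. HEI10 (AT1G53490), a RING-type protein that promotes crossovers in meiosis, had 25.2, 26.9 and 27.2 CPM in bzip68, against 1.495, 1.45 and 1.59 CPM in wt. Both rose in every bzip68 library, to levels far above any wt library. The pair overlap by 1446 bp on opposite strands, and no source says that counting used the strand, so their values cannot be told apart in full.

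SADHU3-2 (AT3G42658), a copy of the Sadhu retroelements, had 10.6, 9.36 and 6.50 CPM in bzip68, against 0.320, 0.223 and 0.297 CPM in wt. Genes of DNA methylation and silencing were followed as a list beside it, and 0 of 19 passed by edgeR (1 lower at an unadjusted p under 0.05, where 5.46% of all genes were, and 1 lower each by DESeq2 and limma voom, which called 0.983% and 2.99% of all genes lower). At the unadjusted level 3 were lower without bzip68 replicate 2 and 2 without wt replicate 2. The one nearest was ROS1, a DNA glycosylase that removes methylated cytosine, at 26.5, 23.53 and 24.9 CPM in bzip68, against 40.2, 33.2 and 40.4 CPM in wt (log2 fold change -0.60 ± 0.12, SE; edgeR quasi-likelihood, Benjamini-Hochberg adjusted p = 0.0554).

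ENT1 (AT1G70330), an equilibrative nucleoside transporter, stood at 3.90, 3.98 and 4.01 CPM in bzip68, against 30.5, 32.1 and 31.4 CPM in wt. AT1G70340, a DUF936 protein that overlaps ENT1 by 659 bp, stood at 3.38, 2.46 and 3.36 CPM in bzip68, against 12.8, 10.5 and 11.2 CPM in wt. Both fell, and the spread within each genotype was small beside the gap. ENT1 and AT1G70340 lie on opposite strands, so, as for MRD1 and HEI10, their values cannot be told apart in full. AT3G05060, annotated as a NOP56-like protein of pre-RNA processing, had 8.41, 10.5 and 8.13 CPM in bzip68, against 47.4, 51.3 and 48.7 CPM in wt. It fell 5.47-fold by summed counts, while the nucleolus and ribosome assembly list went the other way: 12 of its 15 members had positive values, with a median of 0.19, though 0 of 15 passed by edgeR (4 were higher at an unadjusted p under 0.05, where 4.63% of all genes were, and other tools called 0, with DESeq2, and 3, with limma voom, which called 0.203% and 1.64% of all genes higher). In that list FIB2, a fibrillarin of small nucleolar ribonucleoproteins, had 57.1, 68.8 and 70.2 CPM in bzip68, against 51.6, 45.4 and 48.5 CPM in wt (log2 fold change 0.43 ± 0.12, SE; edgeR quasi-likelihood, Benjamini-Hochberg adjusted p = 0.205). AT3G05060 has a near paralog, and counting may split reads between them.

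These 7 genes and BZIP68 were the ones that passed in each of the 6 fits that left out 1 mock library. The other 31 genes, 26 lower and 5 higher, lost the call in at least 1 such fit. Among all genes called lower, 5 of which kept every call, the order of the wt libraries was uneven: wt replicate 2 was the highest wt library in 21 of 31 (67.7%, against 36.0% of all genes tested) and wt replicate 3 the lowest in 22 (71.0%, against 35%). Without wt replicate 3 the count of calls was 122, and without wt replicate 2 it was 8. No gene of the 39 had overlapping groups, while 1342 genes of all tested (7.37%) lay lower in bzip68 without overlap and 1251 (6.87%) lay higher.

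**Figure D2:**
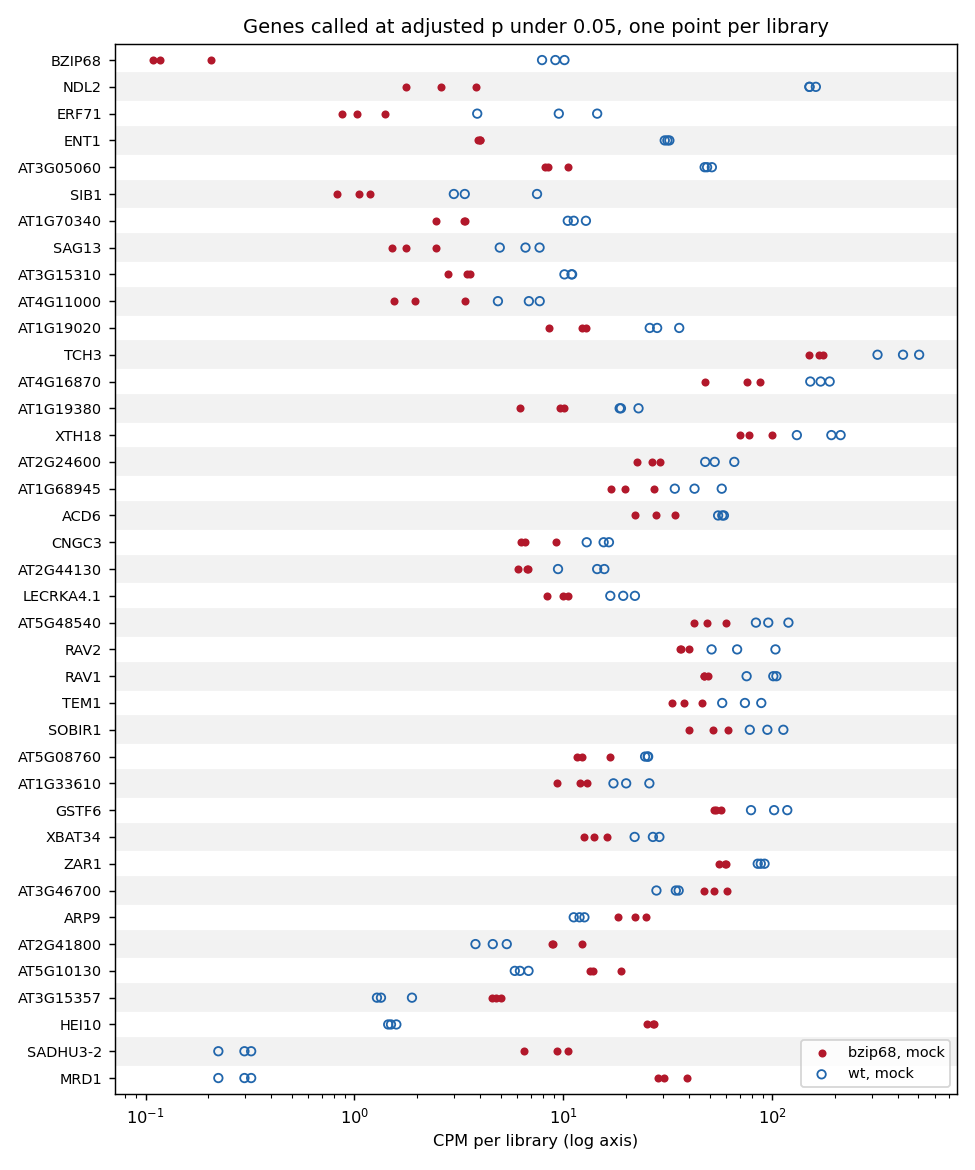
Rows are the 39 genes past an adjusted p of 0.05, ordered from the most negative to the most positive log2 fold change, and points are CPM per library on a log axis, filled for the 3 mock bzip68 and open for the 3 mock wt libraries. The groups do not overlap in any row, and the gap between the nearest libraries of the groups is widest for MRD1, NDL2 and BZIP68 and narrowest for TEM1, AT1G68945 and SOBIR1.

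Of 4 tested transcription factors of the RAV type 3 fell. These proteins join an AP2 and a B3 DNA-binding domain, and the family was taken up after its values were seen. RAV1 (AT1G13260), which restrains growth when overexpressed, had 49.4, 47.1 and 46.9 CPM in bzip68, against 104.5, 101.0 and 75.2 CPM in wt. TEM1 (AT1G25560), a repressor of flowering, had 37.9, 33.0 and 45.8 CPM in bzip68, against 73.9, 88.5 and 57.5 CPM in wt. RAV2 (AT1G68840), also known as TEM2, had 36.0, 36.6 and 39.9 CPM in bzip68, against 67.8, 103.4 and 51.2 CPM in wt. In each of these genes the lowest wt library was replicate 3 and still above every bzip68 library. Their log2 fold changes were -0.97 ± 0.15, -0.91 ± 0.17 and -0.98 ± 0.19 (SE, n = 3 per group; edgeR quasi-likelihood, Benjamini-Hochberg adjusted p = 0.0157, 0.0437 and 0.0476). EDF3, the further family member that was tested, had 4.31, 3.75 and 4.66 CPM in bzip68, against 3.63, 3.68 and 4.36 CPM in wt and did not pass (0.12 ± 0.21). RAV1 lost its call without bzip68 replicate 3 or wt replicates 1 or 2, and TEM1 and RAV2 passed only without wt replicate 3 among the fits that left out 1 library.

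Several genes that fell encode receptors and other proteins of plant immunity, a grouping also made after their values were seen. SOBIR1 (AT2G31880), the receptor kinase that partners with receptor-like proteins, had 39.7, 61.2 and 52.1 CPM in bzip68, against 94.6, 112.8 and 77.9 CPM in wt. ZAR1 (AT3G50950), an intracellular resistance protein, had 59.1, 59.9 and 55.5 CPM in bzip68, against 88.0, 91.7 and 85.1 CPM in wt. The 3 libraries of each genotype lay close together for ZAR1, whose fold was the smallest of the 39 (1.52-fold lower; edgeR quasi-likelihood, Benjamini-Hochberg adjusted p = 0.0496). ACD6 (AT4G14400), an ankyrin-repeat membrane protein of salicylic acid dependent cell death, had 21.9, 34.1 and 27.6 CPM in bzip68, against 55.0, 57.6 and 58.6 CPM in wt. Other ankyrin-repeat genes that fell were AT2G24600, AT4G11000 and XBAT34. AT2G24600 had 22.6, 28.9 and 26.4 CPM in bzip68, against 52.9, 65.7 and 47.7 CPM in wt, and AT4G11000 was 2.83-fold lower. AT2G24600 had the smallest adjusted p after the 8 genes above (0.00746; edgeR quasi-likelihood, Benjamini-Hochberg), and it lost its call without bzip68 replicate 3 or wt replicate 2.

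SIB1 (AT3G56710), a VQ protein that binds WRKY33, had 0.820, 1.05 and 1.19 CPM in bzip68, against 2.99, 7.47 and 3.37 CPM in wt. The wt group was spread here, with replicate 2 well above the other libraries of its group, and no bzip68 library reached any of them. The lectin receptor kinase LECRKA4.1 (AT5G01540) had 10.5, 9.95 and 8.34 CPM in bzip68, against 19.3, 22 and 16.8 CPM in wt. AT5G48540, annotated as receptor-like protein kinase-related, had 42.3, 60.2 and 48.5 CPM in bzip68, against 95.5, 119.3 and 83.4 CPM in wt. Both were about 2-fold lower. The leucine-rich repeat gene AT1G33610 was 1.84-fold lower and the cyclic nucleotide-gated channel CNGC3 2.03-fold lower.

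The salicylic acid and immunity list gives the wider view. Of 24 measured members, 23 had negative values and the median log2 fold change was -0.59, also with PR1 set at its bound. One passed, the senescence-associated dehydrogenase SAG13, with 2.46, 1.76 and 1.52 CPM in bzip68, against 7.69, 6.58 and 4.96 CPM in wt. At an unadjusted p under 0.05, 13 were lower and 1 higher, where 5.46% of all genes were lower and 4.63% higher. Without wt replicate 2 the numbers were 8 lower and 0 higher, and without bzip68 replicate 2 the number higher was 0. PR5, a thaumatin-like defence protein, had 23.8, 35.6 and 27.6 CPM in bzip68, against 46.0, 48.6 and 48.1 CPM in wt (log2 fold change -0.72 ± 0.18, SE; edgeR quasi-likelihood, Benjamini-Hochberg adjusted p = 0.142). CBP60G, a transcription factor that switches on salicylic acid synthesis, had 6.87, 6.44 and 6.39 CPM in bzip68, against 9.39, 10.7 and 10.8 CPM in wt. Neither gene had overlapping groups. PR1, the classic marker of salicylic acid signalling, was uneven among the wt libraries: it had 0 counts in each bzip68 library, against 44, 138 and 1 counts in wt. PR2, a glucanase, had 2, 5 and 4 counts in bzip68, against 174, 196 and 2 counts in wt. For both, wt replicate 3 lay close to the mutant.

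Calcium and cell wall genes included further genes that fell. TCH3 (AT2G41100), a calmodulin-like protein induced by touch, had 166.2, 149.8 and 174.8 CPM in bzip68, against 421.8, 503.7 and 318.4 CPM in wt. Of the 10 measured touch genes it was the one that passed, 8 had negative values and the median was -0.47. At an unadjusted p under 0.05, 6 of the 10 were lower and 0 higher, where 5.46% of all genes were lower. Over the fits that left out 1 library, 3 to 6 were lower at that level and 0 to 2 were called lower. TCH2, a further calmodulin-like protein, had 32.5, 24.3 and 32.6 CPM in bzip68, against 43.0, 36.3 and 44.5 CPM in wt, without overlap. XTH18 (AT4G30280), which cuts and rejoins xyloglucan in the wall, had 77.3, 70.3 and 99.5 CPM in bzip68, against 191.5, 212.0 and 130.9 CPM in wt. Its family did not move as one: of 23 XTH genes measured, 9 had negative and 14 positive values, where 48.9% of all genes were negative. At an unadjusted p under 0.05, 5 XTH genes were lower and 7 higher, against 5.46% and 4.63% of all genes. Over the fits that left out 1 library these numbers ran from 2 to 5 (2 without bzip68 replicate 1) and from 3 to 6 (3 without bzip68 replicate 2 or wt replicate 2, 4 without bzip68 replicate 3 or wt replicate 3). XTH21, for example, had 3.18, 2.69 and 2.49 CPM in bzip68, against 0.534, 1.34 and 1.09 CPM in wt (log2 fold change 1.49 ± 0.35, SE; edgeR quasi-likelihood, Benjamini-Hochberg adjusted p = 0.117). XTH23 went the other way, with 8.31, 13.7 and 13.4 CPM in bzip68, against 36.9, 61.8 and 16.3 CPM in wt.

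ERF71 (AT2G47520), an ethylene response factor of low-oxygen signalling also called HRE2, had 1.03, 1.41 and 0.867 CPM in bzip68, against 9.50, 14.5 and 3.87 CPM in wt. Of the other 16 measured hypoxia genes none passed, and the list median was -0.04. At an unadjusted p under 0.05, 3 of all 17 were lower and 0 higher, where 5.46% of all genes were lower and 4.63% higher. Over the fits that left out 1 library, 0 to 3 of the list were called lower. The glutathione S-transferase GSTF6 (AT1G02930), which conjugates glutathione to reactive compounds, had 56.7, 53.5 and 52.8 CPM in bzip68, against 79.0, 117.8 and 101.9 CPM in wt. It too was the only gene of its list called in the main fit, where 16 of 35 values were negative and the median was 0.01. At an unadjusted p under 0.05, 4 of the 35 were lower and 3 higher. Over the fits that left out 1 library, 0 to 2 of them were called lower. GSTF7, its close paralog, had 86.3, 67.8 and 74.8 CPM in bzip68, against 85.0, 151.0 and 125.2 CPM in wt, with overlap.

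The remaining genes that fell were AT1G19020, AT1G19380, AT3G15310, AT1G68945, XBAT34, AT2G44130, AT4G16870 and AT5G08760. AT1G19020, a small stress-induced protein, had 12.2, 8.54 and 12.9 CPM in bzip68, against 28.1, 35.8 and 25.9 CPM in wt. AT3G15310, annotated as a pseudogene without a described product, had 3.59, 2.81 and 3.47 CPM in bzip68, against 11, 10.9 and 10.1 CPM in wt. AT1G19380, a DUF1195 protein, had 10.1, 6.20 and 9.64 CPM in bzip68, against 18.6, 22.9 and 18.8 CPM in wt. All 3 stood lower in every bzip68 library than in any wt library. XBAT34, an ankyrin-repeat RING ubiquitin ligase, was 1.82-fold lower and lies 20.3 kb from ACD6 on chromosome 4. AT2G44130, a kelch-repeat gene that was 2.02-fold lower, lies wholly within AT2G44140 on the other strand, so their counts may mix. AT1G68945 was 2.09-fold lower, AT5G08760 1.85-fold lower and AT4G16870, annotated as a pseudogene, 2.42-fold lower.

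The genes that rose, beside MRD1, HEI10 and SADHU3-2, did so by less. AT3G15357, annotated as a phosphopantothenoylcysteine decarboxylase subunit, had 5.03, 4.57 and 4.77 CPM in bzip68, against 1.28, 1.34 and 1.88 CPM in wt. ARP9 (AT5G43500), an actin-related protein, had 24.9, 18.3 and 22 CPM in bzip68, against 12.6, 11.9 and 11.2 CPM in wt. AT5G10130, of the Ole e 1 and extensin family, had 13.3, 18.8 and 13.9 CPM in bzip68, against 6.19, 6.80 and 5.85 CPM in wt. In all of them the lowest bzip68 library exceeded the highest wt library. The cell wall DUF642 gene AT2G41800 was 2.17-fold higher, and the UDP-glycosyltransferase gene AT3G46700 was 1.63-fold higher. AT3G15357 lies 33.4 kb from AT3G15310, which fell. The change of ARP9 was not shared by its family, where 1 of 8 actin-related genes passed and the median was 0.11.

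Just outside the threshold lay genes of 2 stress groups. WRKY15, a transcription factor, had 12.7, 11.1 and 13.1 CPM in bzip68, against 23.1, 36.3 and 23.0 CPM in wt (log2 fold change -1.15 ± 0.22, SE; edgeR quasi-likelihood, Benjamini-Hochberg adjusted p = 0.0507). AOX1A, the alternative oxidase of mitochondria, had 53.1, 64.7 and 56.7 CPM in bzip68, against 164.7, 226.5 and 85.4 CPM in wt (adjusted p = 0.0745, edgeR quasi-likelihood). Neither had overlapping groups, and for AOX1A wt replicate 3 stood nearest to the mutant.

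In 4 lists of stress signalling most members had negative values with 0 called, where 48.9% of all genes were negative and 5.46% were lower at an unadjusted p under 0.05. Of 19 WRKY factors 17 were negative with a median of -0.77, and 11 were lower at an unadjusted p under 0.05. Of 8 ZAT zinc finger repressors 8 were negative with a median of -0.80, and 7 were lower at that level. Of 9 stress ERF factors 9 were negative (median -0.73, 5 lower at an unadjusted p under 0.05), and of 14 genes of the mitochondrial retrograde pathway, which carries a signal of mitochondrial dysfunction to the nucleus, 12 were (median -0.64, 8 lower). Without wt replicate 2 the numbers lower at that level were 7 for the WRKY list and 2 for the ZAT list, and without bzip68 replicate 3 it was 4 for the ZAT list. By DESeq2, which called 0.983% of all genes lower, the numbers called lower were 3, 1, 2 and 3 in the same order. By limma voom, which called 2.99% of all genes lower, they were 9, 0, 3 and 7. These lists were chosen with results of these data known, so their direction is a description.

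WRKY25 had 12.3, 14.3 and 13.7 CPM in bzip68, against 42.2, 52.9 and 25.1 CPM in wt. WRKY53, of senescence and defence, had 9.64, 10.1 and 8.45 CPM in bzip68, against 19.3, 18.5 and 12 CPM in wt. ZAT12, which responds to reactive oxygen, had 8.72, 7.84 and 10.7 CPM in bzip68, against 25.1, 30.9 and 10.8 CPM in wt. In these genes wt replicate 3 was the lowest wt library, and for ZAT12 it lay level with bzip68 replicate 3. ERF6, which acts in oxidative stress and growth arrest, had 6.87, 7.37 and 7.69 CPM in bzip68, against 13.8, 17.7 and 9.72 CPM in wt. NAC013, a factor of the retrograde pathway, had 16.5, 28.1 and 16.0 CPM in bzip68, against 64.2, 74.8 and 25.7 CPM in wt, so that 1 bzip68 library exceeded wt replicate 3. OM66, an outer mitochondrial membrane protein, had 7.18, 15 and 10.3 CPM in bzip68, against 40.7, 71.0 and 18.1 CPM in wt.

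**Figure D3:**
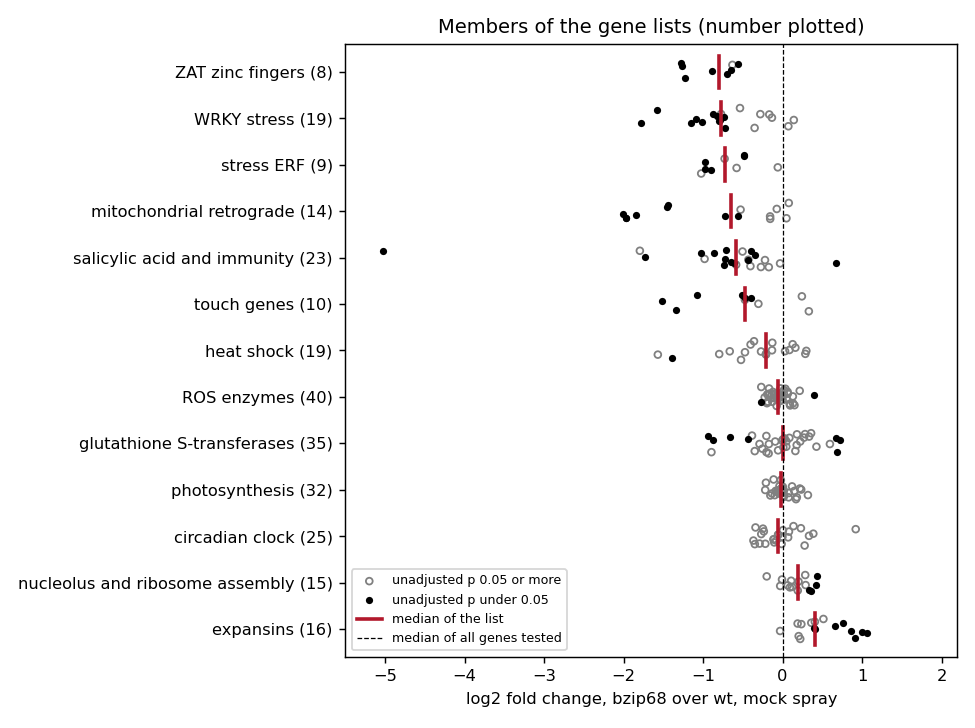
Points are genes of 13 lists, at their log2 fold change (bzip68 over wt, mock spray) on the x axis, filled where the unadjusted edgeR p was under 0.05. Red bars are list medians and the dashed line is the median of all genes tested. PR1, with 0 counts in bzip68, is left out. The ZAT, WRKY, ERF, mitochondrial retrograde, salicylic acid and touch lists lie left of the line, expansins lie right of it, and photosynthesis and clock genes lie around it.

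Each wt library differed from the others in these lists. The median deviation of the 19 WRKY genes from the wt mean, in log2 units, was -0.74, -0.49 and -0.78 in the bzip68 libraries, against 0.15, 0.23 and -0.43 in the wt libraries. The ZAT genes lay at -1.06, -0.69 and -0.75 in bzip68, against 0.01, 0.53 and -0.46 in wt. In both, wt replicate 3 lay nearest to the mutant and wt replicate 2 farthest. Over the fits that left out 1 library, the median stayed between -1.01 and -0.60 for the WRKY list and between -1.01 and -0.60 for the ZAT list, each smallest in size without wt replicate 2.

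Genes that let cell walls extend lay on the other side. Of 16 expansins measured, which loosen the wall, 15 had positive values with a median log2 fold change of 0.41, and 8 were higher at an unadjusted p under 0.05 (4.63% of all genes), with 0 called by edgeR. That number was 4 without bzip68 replicate 2 and 5 without wt replicate 1 or wt replicate 3. DESeq2 called 2 of them higher (0.203% of all genes) and limma voom 3 (1.64% of all genes). EXPA8 had 33.3, 33.8 and 29.0 CPM in bzip68, against 15.3, 17.0 and 16.0 CPM in wt (log2 fold change 1.00 ± 0.23, SE; edgeR quasi-likelihood, Benjamini-Hochberg adjusted p = 0.12). EXPA9 had 12.4, 23.9 and 16.4 CPM in bzip68, against 9.71, 11.2 and 8.13 CPM in wt. EXPA14 had 8.41, 14.2 and 8.88 CPM in bzip68, against 6.40, 5.02 and 3.57 CPM in wt. None of these had overlapping groups, and bzip68 replicate 2, which stood apart, was the highest library for EXPA9 and EXPA14 but level with replicate 1 for EXPA8.

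Root hair markers moved with the expansins, and EXPA7 and EXPA18 are on both lists. Of 8 root hair and epidermis markers 5 were measured, and RHD6, RSL4 and MRH6 were not among the genes tested. All 5 were positive, with a median of 0.76, and their summed level was 62.1, 113.1 and 74.6 CPM in bzip68, against 51.0, 49.2 and 45.3 CPM in wt. PRP3, a proline-rich protein of root hairs, had 14.5, 43.5 and 31.6 CPM in bzip68, against 12.5, 11.2 and 11 CPM in wt. Markers of endodermis and stele summed to 170.5, 165.6 and 176.4 CPM in bzip68, against 140.3, 167.8 and 160.4 CPM in wt, with 7 of 9 positive. Without bzip68 replicate 2 the median was 0.22 for expansins and 0.28 for root hair markers. The part of root tissue in the expansin values was not tested.

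**Figure D4:**
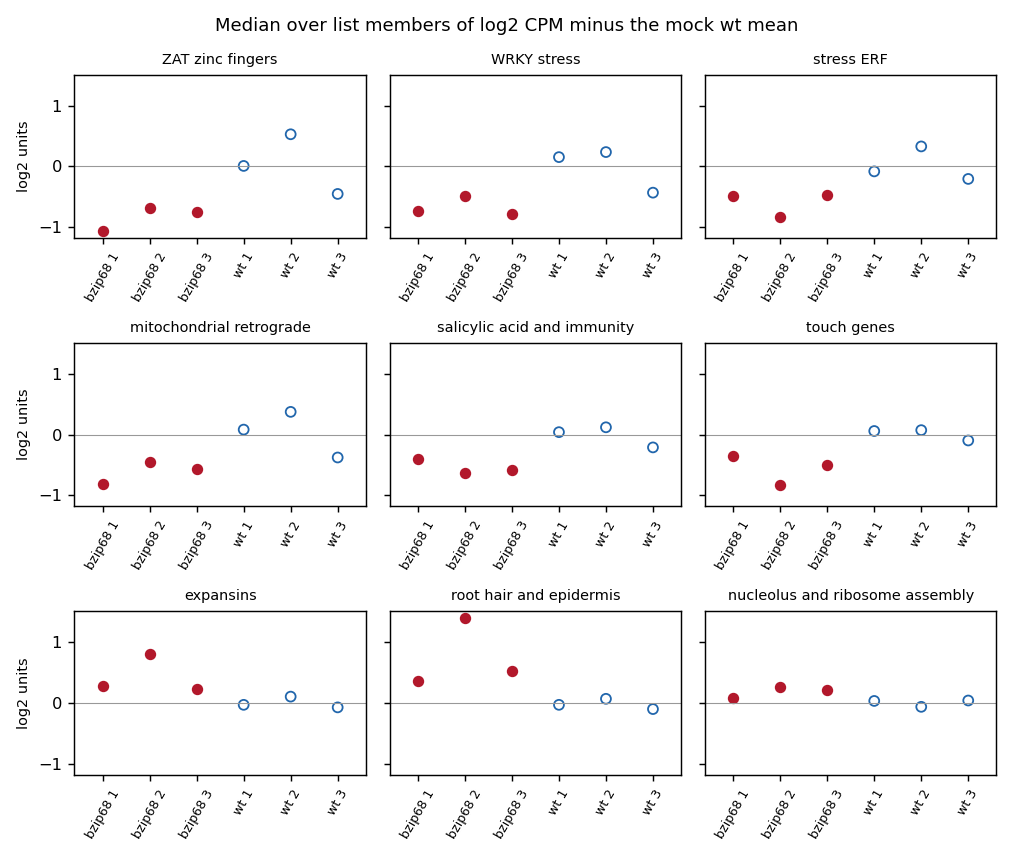
Each panel shows 1 list, with the 3 mock bzip68 libraries (filled) left of the 3 mock wt libraries (open), and the y axis is the median over list members of log2 CPM minus the mock wt mean. In the ZAT, WRKY and mitochondrial retrograde panels wt replicate 3 lies below the other wt libraries and near the mutant, and in the expansin and root hair panels bzip68 replicate 2 lies above the other libraries.

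Most other lists stayed near the median of all genes. Photosynthesis genes had a median of -0.01 with 18 of 32 negative, and 0 were at an unadjusted p under 0.05. Enzymes that handle reactive oxygen had a median of -0.06 over 40 genes, with 1 lower and 1 higher at that level. Clock genes (median -0.06, 25 genes), sugar starvation genes (0.04, 17 genes) and auxin response genes (-0.04, 27 genes) had 0 called by edgeR or DESeq2, and limma voom called 1 sugar starvation gene. At an unadjusted p under 0.05 they held 0, 2 and 2 genes. In the fits that left out 1 library, the photosynthesis, reactive oxygen, clock, sugar starvation and auxin lists each held at most 4 genes lower and 2 higher at that level. Heat shock genes leaned lower, with a median of -0.21 and 13 of 19 negative, though 1 was lower at an unadjusted p under 0.05. Abscisic acid, drought and cold genes had a median of -0.07 over 32. RD29A, a dehydration marker of that list, had 76.3, 98.7 and 108.6 CPM in bzip68, against 171.7, 114.2 and 167.9 CPM in wt. The jasmonate list held genes that went against its median of -0.11. VSP2, a vegetative storage protein induced by jasmonate, had 26.6, 46.6 and 40.6 CPM in bzip68, against 20.6, 24.1 and 16.9 CPM in wt (log2 fold change 0.88 ± 0.19, SE; edgeR quasi-likelihood, Benjamini-Hochberg adjusted p = 0.0843). VSP1 had 21.5, 37.6 and 38.1 CPM in bzip68, against 16.0, 18.8 and 19.0 CPM in wt. IRT1, the iron transporter of roots, had 28.9, 24.7 and 30.2 CPM in bzip68, against 11, 12.2 and 13.4 CPM in wt (1.197 ± 0.33, SE; edgeR quasi-likelihood, Benjamini-Hochberg adjusted p = 0.208), in a nitrate and iron list with a median of -0.08.

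The same genes were then read in the H2O2 libraries, which share no library with the mock comparison. Both contrasts come from the same fit on 12 libraries, however, and share its estimate of the spread of each gene. Calls in both are therefore not a fully independent repeat. Of the 39 genes, 34 had the same sign after H2O2 and 9 of these were called there too, where 0.0714% of all genes were called in either direction. Without the H2O2 wt replicate 2 that stood apart, 34 had the same sign and 8 of these were called. The 9 were BZIP68, NDL2, MRD1, HEI10, SADHU3-2, ENT1, AT1G70340, AT3G05060 and AT4G16870. The remaining 30 were chosen by passing after the mock spray and not after H2O2, so smaller values after H2O2 follow in part from that choice and the medians here are a description. For the 25 of them that fell, the median log2 fold change was -0.38 after H2O2 and -1.02 after the mock spray, and for the 5 that rose it was 0.58 after H2O2 and 1.12 after the mock spray. ERF71, XTH18, AT1G19020, AT5G48540 and AT1G33610 had positive values after H2O2. XTH18, for example, had a log2 fold change of 0.45 after H2O2, against -1.11 after the mock spray. Tested directly, the difference between the genotype contrasts passed for 0 of the 39 genes by edgeR, while 17 were at an unadjusted p under 0.05 (6.47% of all genes), and 5 passed by DESeq2 (0.134% of all genes). Since the 39 were chosen for a large mock contrast, which is 1 part of this difference, nothing is read from these numbers. Of the lists, the median of the expansins was 0.03 after H2O2 and that of the WRKY genes was -0.26, with 15 of 19 negative (49.6% of all genes tested). Without the H2O2 wt replicate 2 the WRKY median was -0.10, with 13 of 19 negative. At an unadjusted p under 0.05 after H2O2, 10 of 24 salicylic acid and immunity genes were lower (4.42% of all genes) and 12 of 15 nucleolus and ribosome assembly genes were higher (4.82% of all genes), with medians of -0.45 and 0.42.

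**Figure D5:**
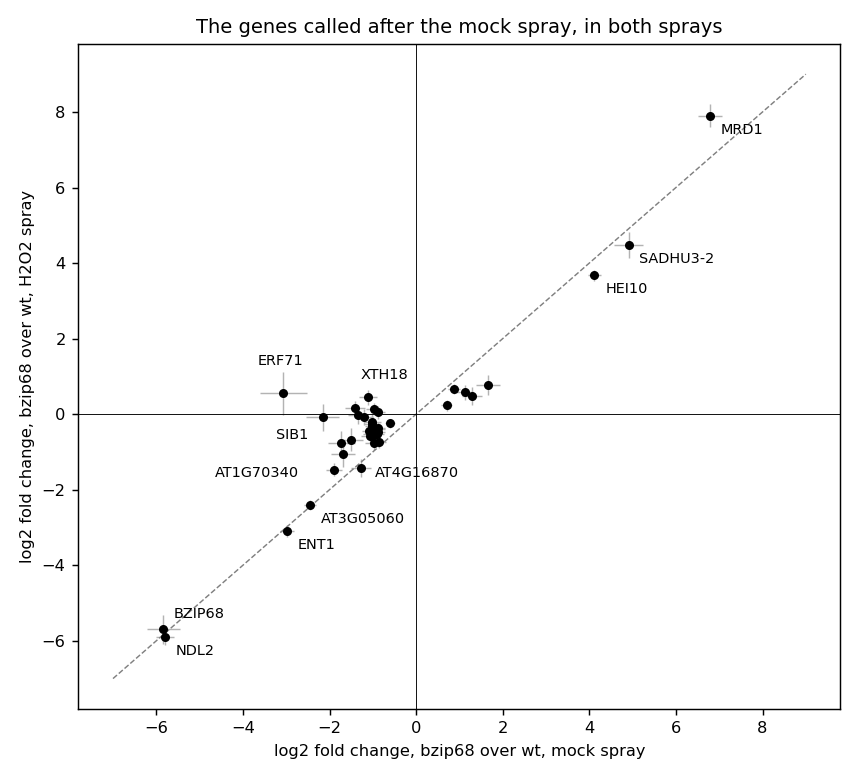
Points are the 39 genes past an adjusted p of 0.05 after the mock spray, with the log2 fold change (bzip68 over wt) after the mock spray on the x axis and after the H2O2 spray on the y axis, bars of 1 SE and a dashed line of equal values. NDL2, BZIP68, MRD1, HEI10, SADHU3-2, ENT1 and AT3G05060 lie near the line. ERF71 (-3.07 after the mock spray, 0.55 after H2O2) and SIB1 (-2.16 and -0.08) lie far from it. Most genes near -1 on the x axis lie between the line and 0 on the y axis.

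Peaks of bZIP68 binding came from ChIP-seq of seedlings that express bZIP68-FLAG, with GFP-FLAG seedlings as the control, and the authors assigned each peak to a gene. These seedlings were younger (8 days, against 14 days for the RNA-seq plants) and have no spray in the labels, so binding and expression come from different plants. In the larger of the deposited peak lists, 15 of the 39 genes had a peak (38.5%), against 4121 of the 18205 genes tested (22.6%). They were 12 of the 31 that fell and 3 of the 8 that rose. In the shorter list 4 of 39 had one (10.3%), against 3.90% of all genes tested, namely AT3G15357, AT1G33610, AT2G44130 and BZIP68. BZIP68, counted in both lists, is the mutated gene itself, so a direct effect of the mutation and a response to loss of the factor cannot be told apart. Its peak lies inside the gene that the bZIP68-FLAG seedlings express in tagged form. RAV1 had 2 peaks, and TEM1 and RAV2 had 1 each. Among the genes that passed in every fit that left out 1 mock library, BZIP68 and NDL2 had a peak. MRD1, HEI10, SADHU3-2, ENT1, AT1G70340 and AT3G05060 had none in either list. Of further genes with large changes, SIB1 (log2 fold change -2.16) had a peak in the larger list and ERF71 (-3.07) had none.

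The G-box CACGTG, which reads the same on both strands, was found in 5 of the 16 peaks at these genes (31.2%), against 47.4% of all 5734 peaks on the nuclear chromosomes. AT3G15357, which rose, carries a pair of G-boxes just upstream of its start. They are shown here with the G-boxes in capitals, in the 100 bases before the gene start on the plus strand (TAIR10 coordinates, sequence from RefSeq TAIR10.1), chr3:5186982-5187081.
AT3G15357: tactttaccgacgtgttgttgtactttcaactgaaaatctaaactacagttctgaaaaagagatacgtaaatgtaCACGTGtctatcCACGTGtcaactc
Of genes that fell, 4 had a single G-box within the peak. The 30 bases around each are given on the plus strand, at chr2:18254090-18254119 for AT2G44130, chr1:12188975-12189004 for AT1G33610, chr2:13556180-13556209 for SOBIR1 and chr3:21007872-21007901 for SIB1.
AT2G44130: cgctgcgatgtcCACGTGgcatcgcgttgc
AT1G33610: aaccggagctgcCACGTGtcatcctgatga
SOBIR1: ccattgttagcaCACGTGtcaagacccgag
SIB1: ttgaagctcctcCACGTGaatgcaactctc
All of these 4 lie inside the transcribed gene, from 179 to 1322 bases after its start.
The peaks of NDL2 and RAV1 held no G-box. Since other ACGT elements can also be bound by factors of this group, the central 300 bases of the NDL2 peak, which lies before the start of this gene, are given on the plus strand with ACGT in capitals, at chr5:3798736-3799035.
NDL2: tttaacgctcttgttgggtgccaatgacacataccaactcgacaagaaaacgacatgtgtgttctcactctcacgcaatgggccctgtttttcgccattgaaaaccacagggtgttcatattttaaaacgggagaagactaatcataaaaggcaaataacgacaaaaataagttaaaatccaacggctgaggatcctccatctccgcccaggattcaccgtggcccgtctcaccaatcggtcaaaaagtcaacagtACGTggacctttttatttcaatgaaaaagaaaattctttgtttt
An ACGT element was present in the central 300 bases of 76.4% of all peaks. RAV1 has a promoter peak and a distal one with a distance to the start of -4263 bases, as the authors list it. The central 300 bases of the distal peak, chr1:4537267-4537566 on the plus strand, held 1 such element, and those of the promoter peak, which has the higher score in the authors' list (199.68, against 131.74), held 5. The distal window is shown because it lies outside exons.
RAV1: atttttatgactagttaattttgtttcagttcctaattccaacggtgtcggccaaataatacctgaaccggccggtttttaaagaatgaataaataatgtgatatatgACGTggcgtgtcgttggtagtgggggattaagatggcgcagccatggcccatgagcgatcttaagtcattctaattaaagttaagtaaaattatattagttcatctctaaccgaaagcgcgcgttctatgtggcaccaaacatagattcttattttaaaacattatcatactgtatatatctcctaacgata
A match of letters is a description of the sequence and not of binding at that place.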

How the data were processed

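RNA-seq of whole seedlings was used as the raw count of each gene in each library, in the table the authors deposited, and 6 per-sample columns that matched no sample label were not used. RSEM 2.1.30, ChIPseeker, TopHat2 2.1.0, the TAIR10 build and MACS 1.4.3 appear, without their roles, in the submitters' processing notes. Whether the counts were rounded RSEM estimates, and whether counting used the strand, is not given in the sources used here. Genes were filtered with filterByExpr by group, scaled with TMM factors and fitted by edgeR (version 4.0.16, R 4.3.3, robust quasi-likelihood F-test) on 12 libraries in 4 groups with 8 residual degrees of freedom, at a Benjamini-Hochberg adjusted p under 0.05. The planned fit on all RNA samples was made on these 12 because the remaining columns could not be mapped. Errors are standard errors from the F statistic, and CPM use TMM-scaled library sizes. The fit was tested on simulated data. DESeq2 1.42.0 and limma voom (limma 3.58.1) were alternatives.

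Replicate pairs within a group lay beyond sampling noise, with a chi-square per degree of freedom of 6.09 to 28.5 over all 12 pairs.

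The genes described, the 35 gene lists (610 of 638 symbols matched) and the grouping of comparisons were chosen with earlier results of these data known. BZIP68 was named first, then every gene called, with values per library for up to 24 of the smallest p-values and for called list members, and up to 4 members per list with the smallest p. Lists carry no set test. Peaks were the authors' own, in 2 deposited lists. Their score, which per the file headers derives from the -log10 p-value of a peak, was not used as a filter. Whether the ChIP samples were pooled before peak calling is not given in the sources used here. RefSeq TAIR10.1 was compared with the peak lists, and 5343 of 5412 nuclear genes with a peak were found, all overlapping on the same chromosome.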

Additional observations from a re-analysis of the deposited data

How the results depend on the processing

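The 39 calls (8 higher, 31 lower) became 216 with DESeq2 (37 and 179), 843 with limma voom and library weights (298 and 545), 17 with only the 6 mock libraries in the fit (9 lower), 73 without the libraries that stood apart (63 lower) and 9 at an adjusted p under 0.01 (3 and 6). Leaving out 1 mock library gave 8 to 122 calls, 3 to 14 of them higher and 5 to 115 lower. It was 9 without bzip68 replicate 3, 11 without wt replicate 1, 8 without wt replicate 2 and 122 without wt replicate 3. In an alternative chosen after seeing the data, without bzip68 replicate 1 and wt replicate 2, whose source names in the table header follow another pattern, 10 genes passed (5 higher, 5 lower). The cause of these shifts was not tested. DESeq2 and limma voom called all of the 39, and the 6-library fit 13 of them. No gene of the 39 changed sign under any setting run. Among the 39 genes, the difference between the genotype contrasts after the sprays passed for 5 with DESeq2. It passed for 2 in the edgeR fit without wt replicate 3, against 0 in the main edgeR fit. Over all genes tested it passed for 24 with DESeq2 and 0 in the main edgeR fit. Without H2O2 wt replicate 2 in the fit, 27 genes passed after the mock spray, 24 of them among the 39. The shorter peak list gave 4 genes with a peak, against 15. Deviations of same-numbered libraries correlated at -0.09, 0.14 and 0.17, and those of other pairs at -0.27 to 0.20. With so few libraries these values cannot settle whether same-numbered libraries were handled together. With the replicate number as a block 40 genes passed, 28 of them among the 39. RLE and upper-quartile scaling gave 37 and 32 calls, and the median of all genes stayed between -0.01 and 0.03 under the settings run. Of the 31 genes that lost a call when 1 library was left out, 26 were lower and 5 higher in bzip68.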

Other observations

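Genes of DNA replication and histones leaned upwards in bzip68 after the mock spray, with 12 of 13 positive values and a median log2 fold change of 0.16, and 0 of them passed by edgeR, DESeq2 or limma voom or reached an unadjusted p under 0.05 by edgeR. Of the root endodermis list, CASP1, which builds the Casparian strip, had 21.5, 25.2 and 22.1 CPM in bzip68, against 14.7, 17.63 and 13.9 CPM in wt (log2 fold change 0.57 ± 0.15, SE; edgeR quasi-likelihood, Benjamini-Hochberg adjusted p = 0.171). SHR, a regulator of root radial pattern, had 11.5, 12.3 and 14.9 CPM in bzip68, against 9.93, 8.25 and 9.62 CPM in wt. Neither had overlapping groups.

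The summed levels of phloem and of guard cell markers spread more by library than by genotype. By gene, 5 of 7 phloem and companion cell markers had positive values (median log2 fold change 0.25), and 4 of 8 guard cell markers did (-0.01). All 4 measured shoot meristem markers were positive (median 0.15), with 0 at an unadjusted p under 0.05. Phloem and companion cell markers summed to 252.1, 475 and 286.2 CPM in bzip68, against 315.9, 301.8 and 262.1 CPM in wt, and bzip68 replicate 2 was the highest. Guard cell markers summed to 117.4, 79.8 and 105.1 CPM in bzip68, against 109.6, 90.6 and 111.3 CPM in wt, and there the same library was the lowest. CYP707A1, which breaks down abscisic acid, had 5.23, 6.90 and 5.20 CPM in bzip68, against 9.07, 8.25 and 11.3 CPM in wt, without overlap.

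The 39 genes lay on all 5 nuclear chromosomes, with 13, 8, 7, 5 and 6 of them on chromosomes 1 to 5. Pairs closer than 50 kb, apart from those that overlap, were XBAT34 with ACD6, AT3G15310 with AT3G15357 and RAV2 with AT1G68945 (44.6 kb).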
